A study of Mus musculus with 12 samples.

Results

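The tumour suppressor p53 (Trp53) and 33 genes listed as its targets or negative regulators were followed through 12 RNA-seq libraries of PYMT-R221A cells. Whether p53 induces each listed target in these mouse cells was not tested. The 34 genes were picked by symbol from the deposited count table, which lists 55335 genes, and all 34 were found there. Of these, 33 had enough counts to be tested, among 14935 tested genes. p53 is a transcription factor that is kept scarce by the ubiquitin ligase MDM2 and its relative MDM4, and that is stabilised when DNA is damaged or other stress reaches the cell. Stabilised p53 binds DNA as a tetramer and switches on genes for cell cycle arrest, for apoptosis through mitochondria or death receptors, for DNA repair and for redox control. Because Mdm2 is itself a p53 target, its mRNA is widely read together with that of Cdkn1a as a sign of p53 activity. Since p53 is regulated mostly as a protein, its own mRNA need not follow its activity.

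PYMT-R221A is a mouse mammary tumour cell line named after polyoma middle T, the viral oncogene of its parent tumour model. The labels put 3 libraries of polyadenylated RNA in each of 4 groups: cells given KCC-07 at 40 µM, control cells, cells transfected with siMBD2, an siRNA against Mbd2, and cells transfected with scramble siRNA. The series title places KCC-07 as an inhibitor of the MBD2 pathway, and MBD2 is a protein that binds methylated DNA and recruits a chromatin-remodelling complex. The comparisons ask which p53 genes differ with the compound, which differ with the knockdown, and whether the responses are alike. All groups are the same line, so clones and other lines were not sampled. Not given in the sources used here were the vehicle of KCC-07, the duration of each treatment, the siRNA sequences and the p53 genotype of the line. The labels name the replicates as biological and carry a batch tag with the same number.

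The libraries held 25.8 to 33.96 M counts each. Mbd2, the siRNA target, stood at 35.7, 34.7 and 30.6 CPM (counts scaled to the library size and composition) with siMBD2, against 75.8, 83.2 and 72.5 CPM with scramble, and at 75.1, 72.8 and 77.1 CPM with KCC-07, against 72.9, 75.9 and 76.5 CPM in control. It fell with siMBD2, with a log2 change of -1.20 (SE 0.0867, quasi-likelihood test of edgeR, adjusted p = 0.000197 after Benjamini and Hochberg). The libraries of replicate 3 stood apart, more so in the drug arm. Transcripts encoded by mitochondrial DNA made up 3.90% of all counts in KCC-07 replicate 3, against 1.82% and 1.55% in replicates 1 and 2. They made up 2.81% in control replicate 3, against 1.45% and 1.47%. In the siRNA arm replicate 3 had 2.70% with siMBD2, against 2.14% and 2.12%, and 3.01% with scramble, against 2.21% and 2.32%. Calls of members that change without the 4 libraries of that batch, or with the replicate number as a block, are given beside the results. The fit with the block compares each treated library with the library of the same number in its arm.

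Of 6 epithelial markers, Epcam, Krt18, Krt19, Cdh1 and Cldn7 were higher with KCC-07 at an unadjusted p under 0.05 (edgeR). The other, Krt8, lay below 0, at a log2 change of -0.17. The 6 summed to 1354 to 1391 CPM with KCC-07, against 1120 to 1285 CPM in control. By these sums, RNA of the epithelial origin that the label gives was present in both groups. Fibroblast markers summed to 99.0 to 150 CPM with KCC-07, against 169 to 202 CPM in control, mostly from Pdgfra and Col1a1. Both were lower with KCC-07 at an unadjusted p under 0.05 (edgeR). Col1a2 went the other way, at a log2 change of 0.59, and did not pass at that threshold. Thy1 was at 0 in all 12 libraries, Lum at 0 with KCC-07 and Dcn at most 0.145 CPM in any library. The 6 leukocyte markers summed to 7.44 to 9.22 CPM against 3.10 to 5.23 CPM, with Adgre1 at 0 in all libraries and Ptprc at 0 outside the KCC-07 group, where it reached at most 0.111 CPM. The 4 endothelial markers summed to 1.19 to 6.62 CPM against 2.80 to 4.30 CPM, with Cdh5 at 0 throughout. In bulk RNA, fewer cells of a type and less RNA per cell cannot be told apart. The part of these marker levels in the results on p53 genes was not tested.

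The stretches upstream of 4 members are shown for the sequence motif of p53. Cdkn1a and Ccng1 hold a full site, and Mdm2 and Gadd45a only a single half-site of that motif, as defined below. All 4 rose with KCC-07 in the fit with the replicate block, and of them only Mdm2 and Gadd45a rose without it. Sequences and positions are from RefSeq in the GRCm38.p6 build. They give the 250 bases before the annotated start, 5′ to 3′ on the strand of the gene, with the motif in capitals.
Cdkn1a, chr17:29090729-29090978, plus strand: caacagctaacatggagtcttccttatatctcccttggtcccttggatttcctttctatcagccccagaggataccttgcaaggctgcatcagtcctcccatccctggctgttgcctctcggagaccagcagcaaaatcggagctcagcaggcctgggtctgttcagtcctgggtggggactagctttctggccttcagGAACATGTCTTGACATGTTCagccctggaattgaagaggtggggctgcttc
Ccng1, chr11:40755287-40755536, minus strand: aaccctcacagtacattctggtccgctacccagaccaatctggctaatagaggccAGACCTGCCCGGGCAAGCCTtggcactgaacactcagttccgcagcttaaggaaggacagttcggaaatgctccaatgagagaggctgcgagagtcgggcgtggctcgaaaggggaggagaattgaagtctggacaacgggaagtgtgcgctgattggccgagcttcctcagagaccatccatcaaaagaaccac
Mdm2, chr10:117710759-117711008, minus strand: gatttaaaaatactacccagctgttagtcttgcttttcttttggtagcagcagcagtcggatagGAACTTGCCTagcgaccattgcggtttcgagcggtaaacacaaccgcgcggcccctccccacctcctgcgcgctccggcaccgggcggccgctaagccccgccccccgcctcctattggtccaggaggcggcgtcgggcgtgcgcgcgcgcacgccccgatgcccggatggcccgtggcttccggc
Gadd45a, chr6:67037408-67037657, minus strand: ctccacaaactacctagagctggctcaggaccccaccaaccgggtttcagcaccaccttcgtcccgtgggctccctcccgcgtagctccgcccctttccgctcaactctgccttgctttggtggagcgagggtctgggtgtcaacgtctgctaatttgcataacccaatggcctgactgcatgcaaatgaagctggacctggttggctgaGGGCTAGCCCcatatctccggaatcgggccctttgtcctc
A full p53 site is a pair of half-sites of 10 bases laid head to tail, 1 for each dimer of the tetramer, and here it was searched with no spacer and at most 1 mismatch, both fixed core bases of each half-site kept. The Cdkn1a site begins 51 bases before the start of the upstream transcript (chr17:29090928-29090947) and the Ccng1 site 195 bases before its start (chr11:40755462-40755481). Mdm2 and Gadd45a hold a single half-site in these windows, at chr10:117710935-117710944 and chr6:67037438-67037447.

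RefSeq promoter windows, running from 250 bases before to 50 bases after each start, matched 26 of the 34 members, with 34 windows in all. A full site was found in 3 of the 34 windows, in Cdkn1a, Ccng1 and Gtse1, and in 22 of all 32851 windows of the same length (0.067%). The Gtse1 site, GAGCAAGTTGGGGCTTGCCT, spans the start of its gene at chr15:85859945-85859964. An exact half-site was found in 13 member windows, of 12 members, and in 8.36% of all windows. Among the members called with KCC-07 below, Plk3 and Ephx1 held no half-site and no full site, and Tnfrsf10b matched no window. The antioxidant response element core, TGACNNNGC on either strand, was found in 3 member windows, of Trp53, Cdkn1a and Eda2r, against 12.4% of all windows, and TGATGNAAT, a form of the ATF4 element, in 0 of 34 against 0.965%. Overlaps between these motifs were not removed. Each match is a description of the letters in these windows, not a site shown to be bound.

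In control cells all members but 1 were expressed. Per kilobase of exon, Trp53 itself had the highest mean level, 61.9 ± 7.25 CPM per kb (SD, n = 3), next to Perp, a desmosome-associated death effector, at 61.7 ± 9.39 CPM per kb, and these neighbours did not differ beyond their spread. Ccng1, which encodes cyclin G1, and Btg2, an antiproliferative gene, followed at 50.01 ± 1.96 and 49.9 ± 18.6 CPM per kb. Mdm2 and Cdkn1a lay in the middle of the order, at 13.2 ± 1.29 and 12.1 ± 4.08 CPM per kb, within their spread of each other. The lowest levels per kb above the filter were those of Rrm2b, a p53-inducible ribonucleotide reductase subunit, and Eda2r, a death domain receptor of the TNF receptor family, at 1.73 ± 0.296 and 1.64 ± 0.495 CPM per kb. Pmaip1, which encodes the BH3-only death protein NOXA, was not tested: it had 3, 0 and 1 counts in the KCC-07 libraries, 0, 0 and 1 in control, and 0 in every siMBD2 and scramble library.

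With KCC-07, 5 members rose and 0 fell (quasi-likelihood test of edgeR, p under 0.05 after Benjamini-Hochberg adjustment). The 5 were Mdm2, the growth arrest gene Gadd45a, the stress kinase gene Plk3, the death receptor gene Tnfrsf10b and the detoxification gene Ephx1. That is 5 of 33 against 3.58% of all tested genes higher, and 0 of 33 against 2.08% lower. At an unadjusted p under 0.05, 12 members were higher and 1 was lower. For counts at an unadjusted p, here and elsewhere, the share over all genes was not taken, so they cannot be set against it. DESeq2 called 9 members higher and 1 lower, against 7.26% and 5.28% of all genes. With the replicate block 14 members rose, against 12.8% of all genes, and 3 fell, against 9.00%. The median log2 fold change was 0.26 over the 33 members and 0.02 over all tested genes. Of the 33 members 27 lay above 0, against 51.8% of all genes. In 10 members every KCC-07 library lay above every control library, against 12.3% of all genes, and in 1 member, Ei24, every KCC-07 library lay below, against 10.6%. In 20 members all 3 same-numbered pairs were higher, against 26.3% of all genes, and in 4 all 3 pairs were lower, against 23.0%. The pair medians over the members were 0.32, 0.25 and 0.21 on the log2 scale.

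**Figure D1:**
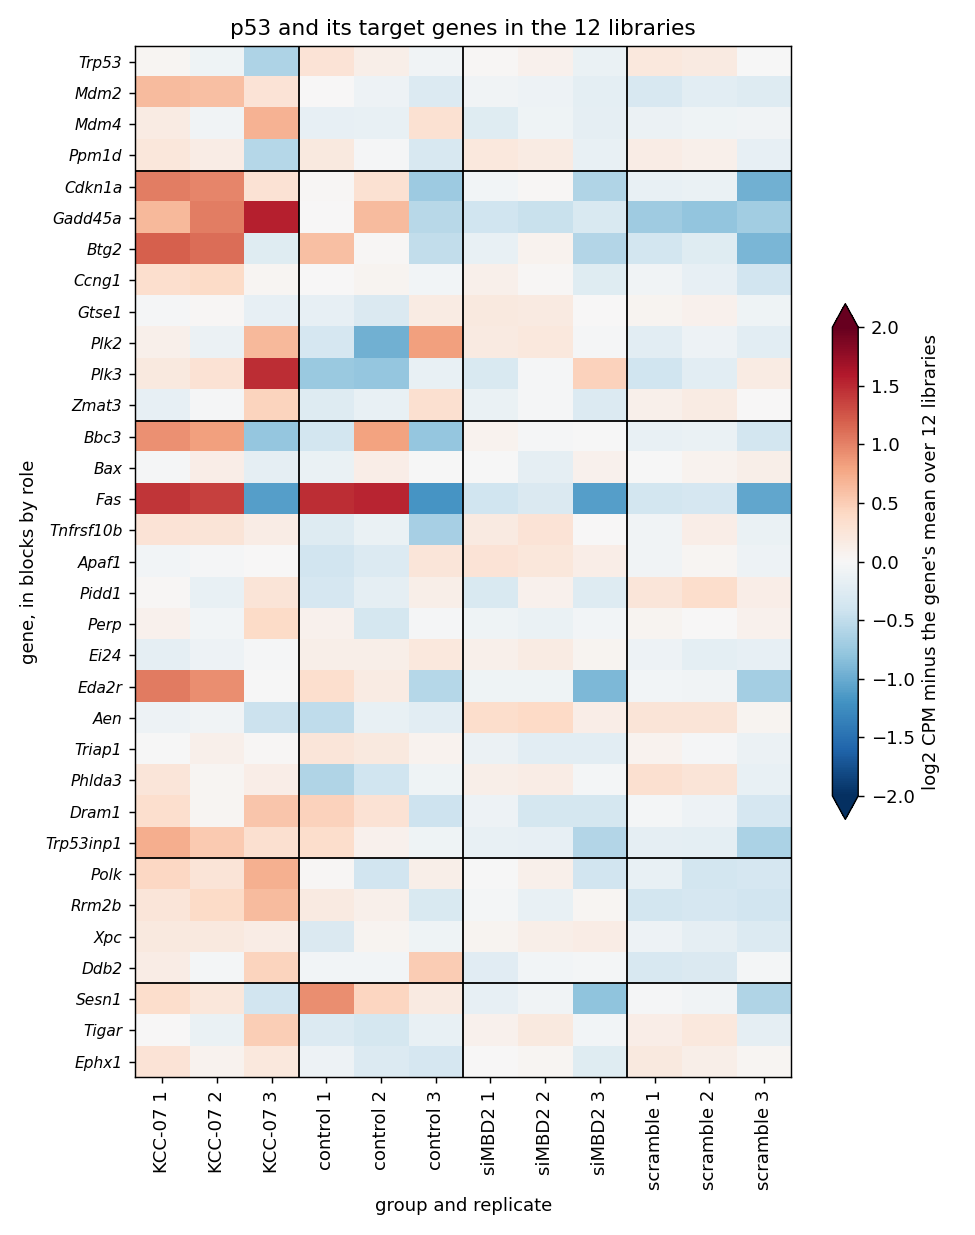
Log2 CPM of the 33 tested members (rows, in blocks by role: regulators, cell cycle, death and survival, repair, redox) in each of the 12 libraries (columns), as the difference from the mean of the gene over all 12; red is above and blue below that mean. Mdm2 is above its mean in all 3 KCC-07 libraries, while Fas follows the replicate number, with replicate 3 low in every group.

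The count of 5 called members depended on single libraries. It was 3 without KCC-07 replicate 1, 2 or 3, against 4.23%, 4.79% and 5.20% of all genes in either direction. It was 2, 3 and 7 without control replicate 1, 2 and 3, against 2.70%, 2.62% and 14.3%. Each of these counts was of higher members, except that 1 of the 3 without KCC-07 replicate 3 was Ei24, which was lower. Without the libraries of batch 3 it was 15, of which 14 were higher, against 15.1% of all genes, and 1 was lower, against 10.6%. The 14 were Mdm2, Plk3, Tnfrsf10b, Ephx1, Cdkn1a, Btg2, Ccng1, Gtse1, Plk2, Apaf1, Eda2r, Phlda3, Trp53inp1 and Polk, and the 1 was Ei24. Fitted on the 6 libraries of the comparison alone, 0 members passed, where 1 gene did (0.00670%). With the block on those 6 libraries 3 members rose, namely Mdm2, Cdkn1a and Plk3, against 2.12% of all genes, and 0 fell, against 0.516%. Mdm2 was the only member that passed under every one of the 6 leave-outs, and the only one under an adjusted p of 0.01, against 0.971% of all genes.

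**Figure D2:**
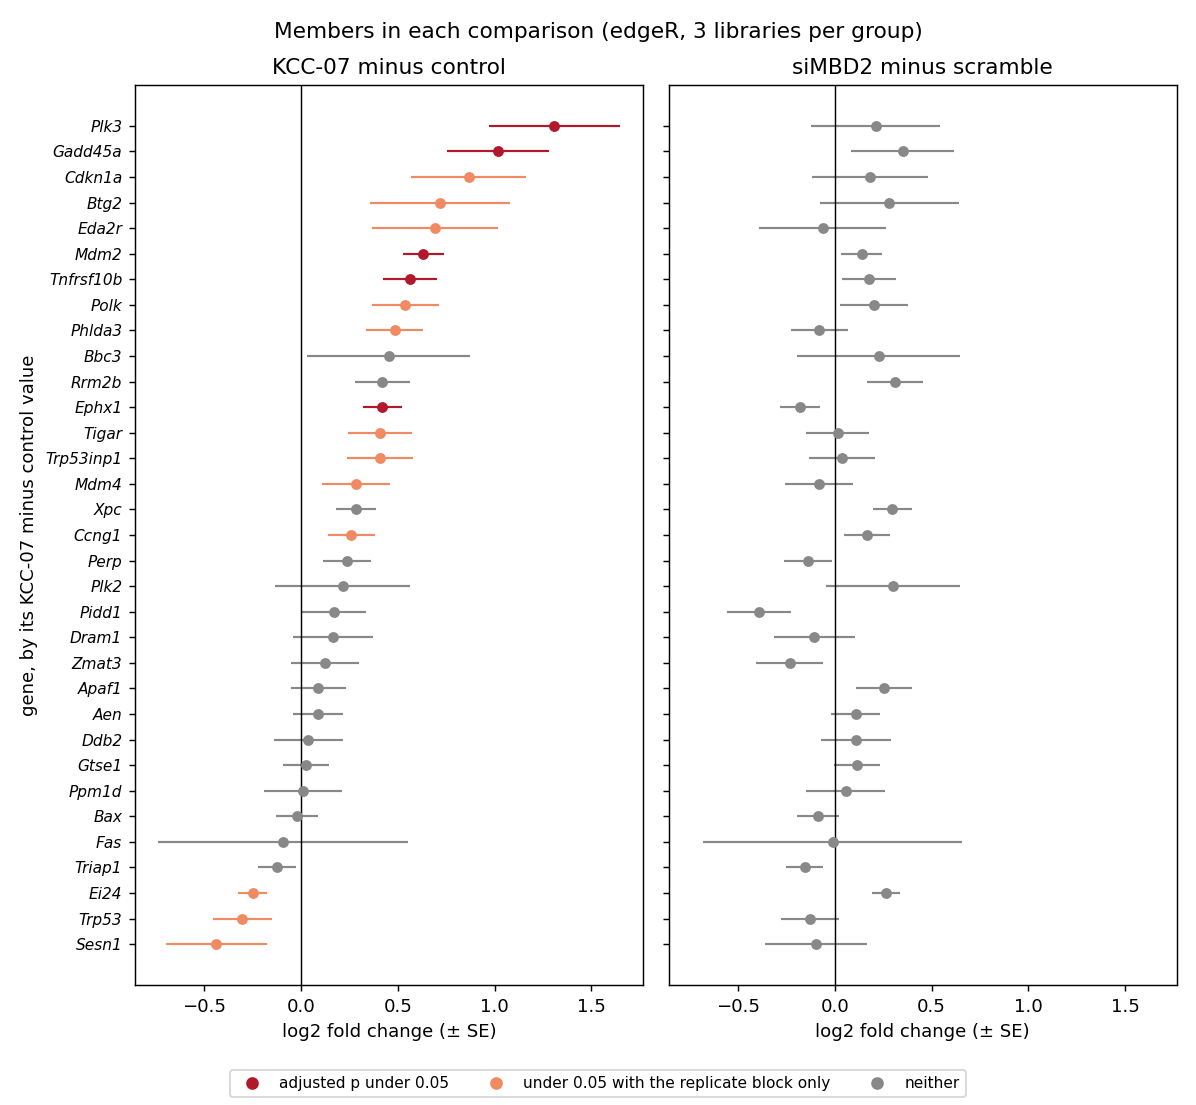
Log2 fold change with its standard error for the 33 tested members, KCC-07 minus control (left) and siMBD2 minus scramble (right), 3 libraries per group, ordered by the KCC-07 value; red marks an adjusted p under 0.05, orange one with the replicate block only and grey neither. Most points lie right of 0 with KCC-07, up to 1.31 for Plk3, while with siMBD2 all lie between -0.39 and 0.35 and none passes with or without the block.

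Among p53 and its direct negative regulators, Mdm2 rose with KCC-07 while Trp53 mRNA stood somewhat lower. Mdm2 (chromosome 10, from 117688875 to 117710758, GRCm38.p6, as all gene positions here), the ubiquitin ligase that marks p53 for degradation, had 113, 110.1 and 88.1 CPM in the KCC-07 libraries, against 73.2, 67.6 and 60.2 CPM in control. The groups did not overlap, and replicate 3 was lowest in each. The mean was 104 ± 13.6 CPM with KCC-07 and 67.0 ± 6.54 CPM in control (SD, n = 3 each). This is 1.55-fold, or 0.63 on the log2 scale (SE 0.107, edgeR's adjusted p = 0.009). The 3 pairs gave log2 ratios of 0.62, 0.70 and 0.55, and the adjusted p from edgeR ran from 0.0018 to 0.0318 over the leave-outs.

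Trp53 (chromosome 11, from 69580359 to 69591873) had 238, 219 and 152 CPM with KCC-07, against 279, 251 and 220.5 CPM in control. The groups overlapped by 1 library, since KCC-07 replicate 1 lay above control replicate 3, and each KCC-07 library lay below the control library of its own number. The log2 fold change was -0.30 (SE 0.151, edgeR's adjusted p = 0.235), and Trp53 fell with the replicate block (-0.32, SE 0.0802, edgeR's adjusted p = 0.0256). Mdm4 (chromosome 1, from 132959484 to 133030561), which blocks the activation domain of p53, had 115, 98.2 and 166 CPM with KCC-07, against 92.1, 92.4 and 127 CPM in control. Replicate 3 was the highest library of each group, and the groups overlapped. The fitted log2 change came to 0.28 (SE 0.175, edgeR's adjusted p = 0.339), and it rose with the block (0.27, edgeR's adjusted p = 0.0401). Ppm1d, the WIP1 phosphatase that removes activating phosphates from p53, averaged 32.3 ± 8.98 CPM with KCC-07 and 32.1 ± 5.68 CPM in control (edgeR's adjusted p = 0.985, and 0.924 with the block).

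**Figure D3:**
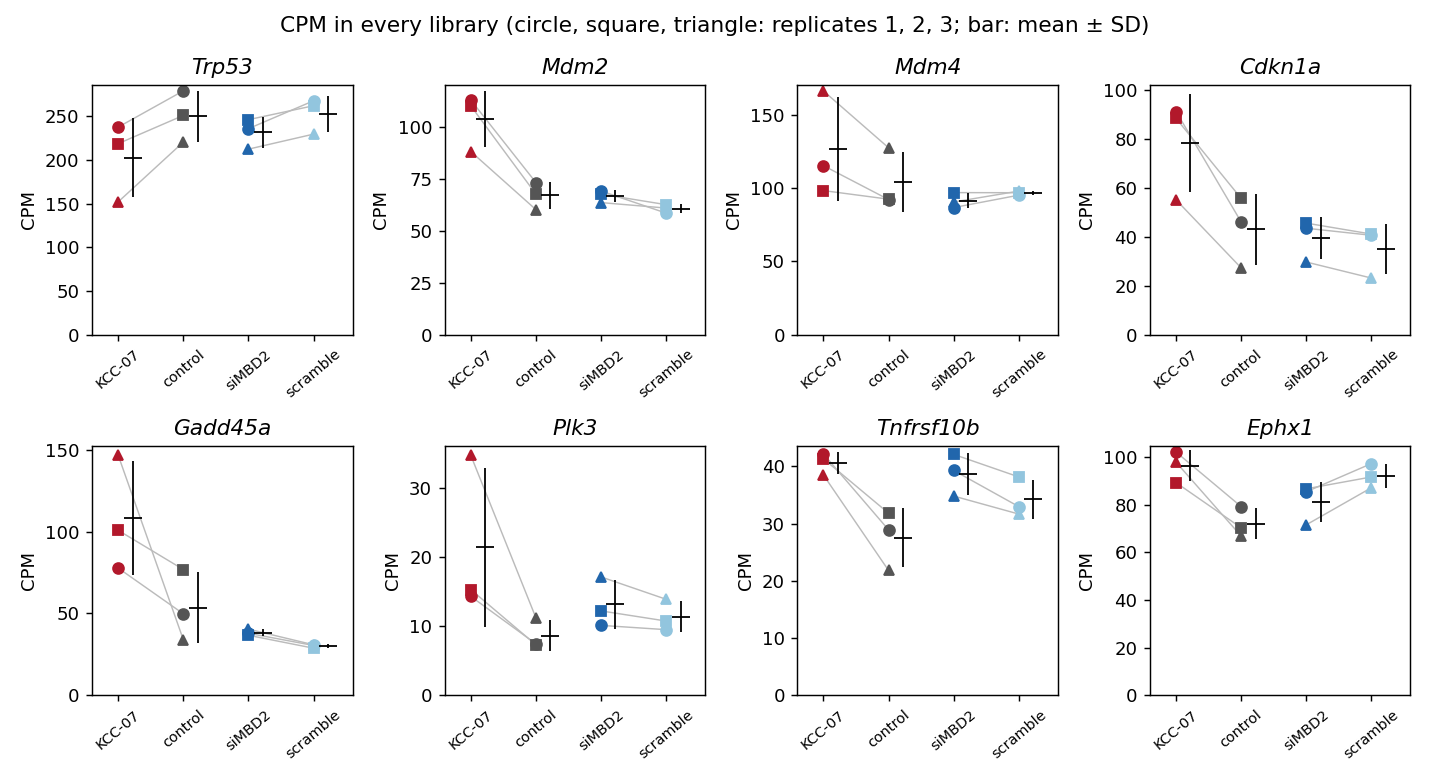
CPM in every library for 8 members, by group, with circles, squares and triangles for replicates 1, 2 and 3, grey lines joining libraries of the same number, and bars for mean ± SD (n = 3). In the panels of Mdm2, Cdkn1a, Gadd45a, Plk3, Tnfrsf10b and Ephx1 each KCC-07 library is above the control library of its number, and in the panel of Trp53 each is below it.

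Of the 8 members that act on the cell cycle and growth, all lay above 0 with KCC-07, against 51.8% of all genes. Their median log2 fold change was 0.49. Gadd45a and Plk3 rose, and with the block Cdkn1a, Btg2 and Ccng1 rose too. Gadd45a (chromosome 6, from 67035096 to 67037457), whose protein binds PCNA and stress kinases, had 77.8, 101 and 147 CPM with KCC-07, against 49.8, 76.9 and 33.9 CPM in control. The groups were apart by a narrow margin between KCC-07 replicate 1 and control replicate 2. On the log2 scale the change was 1.02 (SE 0.265, edgeR's adjusted p = 0.0465), and the pairs gave 0.64, 0.39 and 2.11, so that pair 3 carried most of it. Its call ended without KCC-07 replicate 2 or 3 (edgeR's adjusted p = 0.0652 and 0.116) and without control replicate 1 or 3 (0.132 and 0.0539). Without batch 3 its log2 fold change was 0.50 (edgeR's adjusted p = 0.0703).

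Plk3 (chromosome 4, from 117128655 to 117133963), a polo-like kinase that can phosphorylate p53, had 14.3, 15.3 and 34.7 CPM with KCC-07, against 7.44, 7.29 and 11.2 CPM in control. The groups did not overlap, and replicate 3 was again the highest library of each. The log2 change of 1.31 (SE 0.339, edgeR's adjusted p = 0.0464) was the highest of any member. Without batch 3 it was 1.01 (edgeR's adjusted p = 0.00142), and the call ended without KCC-07 replicate 3 (0.77, edgeR's adjusted p = 0.109) and without control replicate 1 or 2 (edgeR's adjusted p = 0.140 and 0.136).

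Cdkn1a (chromosome 17, from 29090976 to 29100727) encodes p21, the inhibitor of cyclin-dependent kinases that carries out p53-dependent arrest, and it is the member with the full p53 site shown above. It had 91.4, 88.5 and 55.2 CPM with KCC-07, against 46.1, 55.8 and 27.3 CPM in control. Each KCC-07 library lay well above the control library of its number, but KCC-07 replicate 3 was level with control replicate 2, so that the groups overlapped. The log2 fold change was 0.87 (SE 0.299), with an edgeR's adjusted p of 0.105. With the block Cdkn1a had the smallest adjusted p of any member (log2 fold change 0.89, SE 0.0914, edgeR's adjusted p = 0.00123). Its pairs gave 0.99, 0.67 and 1.01. Without batch 3 it also passed (0.83, edgeR's adjusted p = 0.000617).

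Btg2 (chromosome 1, from 134075170 to 134079120) had 292, 276 and 107 CPM with KCC-07, against 192, 128 and 90.5 CPM in control. KCC-07 replicate 3 lay below control replicates 1 and 2, while each pair was higher with KCC-07. Its log2 change was 0.72 (SE 0.360, edgeR's adjusted p = 0.237), and with the block 0.65 (edgeR's adjusted p = 0.0150). Ccng1, whose promoter also holds a full site, averaged 210.1 ± 25.9 CPM with KCC-07 and 176 ± 6.89 CPM in control (log2 fold change 0.26, edgeR's adjusted p = 0.206, and 0.0359 with the block). Gtse1, the other gene with a full site, whose protein moves p53 out of the nucleus in G2, had a log2 fold change of 0.03. Plk2, a related polo-like kinase, had 0.21, and Zmat3, a zinc finger gene of p53-dependent growth control, had 0.12. None of these 3 passed in the fits of all 12 libraries. Without batch 3, Plk2 stood at 0.62 and Gtse1 at 0.23 and both rose (edgeR's adjusted p = 0.0259 and 0.0381).

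Of the 15 members that bear on cell death and survival, 14 were tested. With KCC-07 1 of the 14 rose, against 3.58% of all genes, and the median log2 fold change was 0.17. Tnfrsf10b (chromosome 14, from 69767472 to 69784411), the mouse receptor for the death ligand TRAIL, had 42.1, 41.3 and 38.5 CPM with KCC-07, against 28.9, 31.8 and 21.8 CPM in control. The KCC-07 libraries were close together and all above control. The fitted log2 change came to 0.56 (SE 0.139, edgeR's adjusted p = 0.0386), and the call ended without KCC-07 replicate 1 or 2 (edgeR's adjusted p = 0.0751 and 0.0693) or control replicate 1 (0.0731). With the block Eda2r, Phlda3 and Trp53inp1 rose too.

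Eda2r (chromosome X, from 97333840 to 97377216) had 19.4, 18.0 and 9.40 CPM with KCC-07, against 11.97, 10.6 and 6.38 CPM in control. Replicate 3 was low in both groups, and each pair was higher with KCC-07 (log2 fold change 0.69, edgeR's adjusted p = 0.207, and 0.00522 with the block). Trp53inp1 (chromosome 4, from 11156431 to 11174379), a stress protein that assists p53 and autophagy, had 98.4, 85.4 and 73.9 CPM with KCC-07, against 75.8, 62.8 and 55.8 CPM in control. Only KCC-07 replicate 3 lay within the range of control, and the pairs gave nearly the same log2 ratio, 0.38, 0.44 and 0.40. On the log2 scale the change was 0.41 (SE 0.170, edgeR's adjusted p = 0.165, and 0.00453 with the block). Phlda3, a repressor of AKT at the membrane, averaged 57.2 ± 3.81 CPM with KCC-07 and 41.0 ± 7.53 CPM in control (log2 fold change 0.48, edgeR's adjusted p = 0.0753, and 0.0218 with the block).

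Ei24 (chromosome 9, from 36779159 to 36797393), a membrane protein of the endoplasmic reticulum linked to autophagy, lay on the other side of 0. It had 86.9, 91.8 and 96.4 CPM with KCC-07, against 106, 107 and 114 CPM in control. All KCC-07 libraries lay below all control libraries. The log2 fold change was -0.25 (SE 0.0732, edgeR's adjusted p = 0.0659, and 0.0257 with the block), and it passed without batch 3 (edgeR's adjusted p = 0.0192). The mitochondrial effectors did not pass in either fit of all 12 libraries. Bbc3, which encodes PUMA, had 35.6, 33.5 and 11.1 CPM with KCC-07, against 14.6, 33.1 and 11.02 CPM in control, so that pair 1 alone was apart. Bax, the pore-forming effector, averaged 67.3 ± 7.26 CPM with KCC-07 and 68.3 ± 6.42 CPM in control, and Apaf1, the scaffold of the apoptosome, had a log2 fold change of 0.09. Without batch 3 Apaf1 stood at 0.29 and rose (edgeR's adjusted p = 0.0294). Perp, Pidd1, Dram1, Aen and Triap1 had log2 fold changes of 0.24, 0.17, 0.16, 0.09 and -0.12. Bbc3, like Fas below, was singled out after its values were seen.

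The 4 members of DNA repair and nucleotide supply all lay above 0 with KCC-07, against 51.8% of all genes, with a median of 0.35. In 3 of them, Polk, Rrm2b and Xpc, every KCC-07 library lay above every control library, against 12.3% of all genes. Polk (chromosome 13, from 96480690 to 96542579), a polymerase that copies past damaged bases, had 20.1, 18.1 and 24.7 CPM with KCC-07, against 15.3, 11.5 and 16.4 CPM in control. Its log2 change was 0.54 (SE 0.174, edgeR's adjusted p = 0.0883, and 0.0153 with the block). The lowest KCC-07 library lay above the highest control library. Rrm2b and Xpc, a sensor of nucleotide excision repair, had 0.42 and 0.28 and passed in neither fit (edgeR's adjusted p = 0.101 and 0.117, and 0.0851 and 0.0572 with the block). Ddb2, another damage sensor of that repair, had 0.04.

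Of the 3 members of redox control and detoxification, 1 rose with KCC-07, against 3.58% of all genes. Ephx1 (chromosome 1, from 180976210 to 181020904), a microsomal epoxide hydrolase that is also a textbook gene of the NRF2 response, had 102, 89.2 and 97.8 CPM with KCC-07, against 79.2, 70.3 and 66.8 CPM in control. The groups did not overlap. The fitted log2 change came to 0.42 (SE 0.101, edgeR's adjusted p = 0.0357), and the call ended without KCC-07 replicate 1 or 3 (edgeR's adjusted p = 0.0813 and 0.0577) or control replicate 2 (0.105). Tigar, which lowers glycolytic flux, had a log2 fold change of 0.41 and rose with the block (edgeR's adjusted p = 0.0300). Sesn1, a leucine-sensing inhibitor of mTORC1, averaged 23.7 ± 5.93 CPM with KCC-07 and 32.1 ± 8.80 CPM in control (log2 fold change -0.44, edgeR's adjusted p = 0.318), and fell with the block (edgeR's adjusted p = 0.0173).

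In several members replicate 3 stood apart from replicates 1 and 2 in both groups of the drug arm. Fas, the receptor for Fas ligand, had 38.6, 36.9 and 6.73 CPM with KCC-07, against 40.2, 41.2 and 6.38 CPM in control. It had 10.9, 11.7 and 6.72 CPM with siMBD2, against 11.1, 11.4 and 7.03 CPM with scramble. Replicate 3 was thus low in all 4 groups, and the drug arm was high in replicates 1 and 2 only. Within pairs the log2 ratio of KCC-07 to control was -0.06, -0.16 and 0.08. Fas was the only member more than 1 log2 unit from replicates 1 and 2, with the same sign, in both groups of the drug arm, where 573 of the 14935 tested genes (3.84%) were. Bbc3, Btg2, Eda2r and Cdkn1a were also lower in replicate 3 of both drug-arm groups, and Plk3 and Plk2 were higher. The 4 were lower by 0.70 to 1.63 log2 units with KCC-07 and by 0.79 to 0.99 in control. Btg2, Eda2r and Cdkn1a were lower in the siRNA arm too, at -0.55 to -0.80 with siMBD2 and -0.61 to -0.82 with scramble. Plk3 was higher there, at 0.62 and 0.46. Bbc3 stood at -0.04 and -0.22 in those groups, and Plk2 at -0.22 and -0.06.

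**Figure D4:**
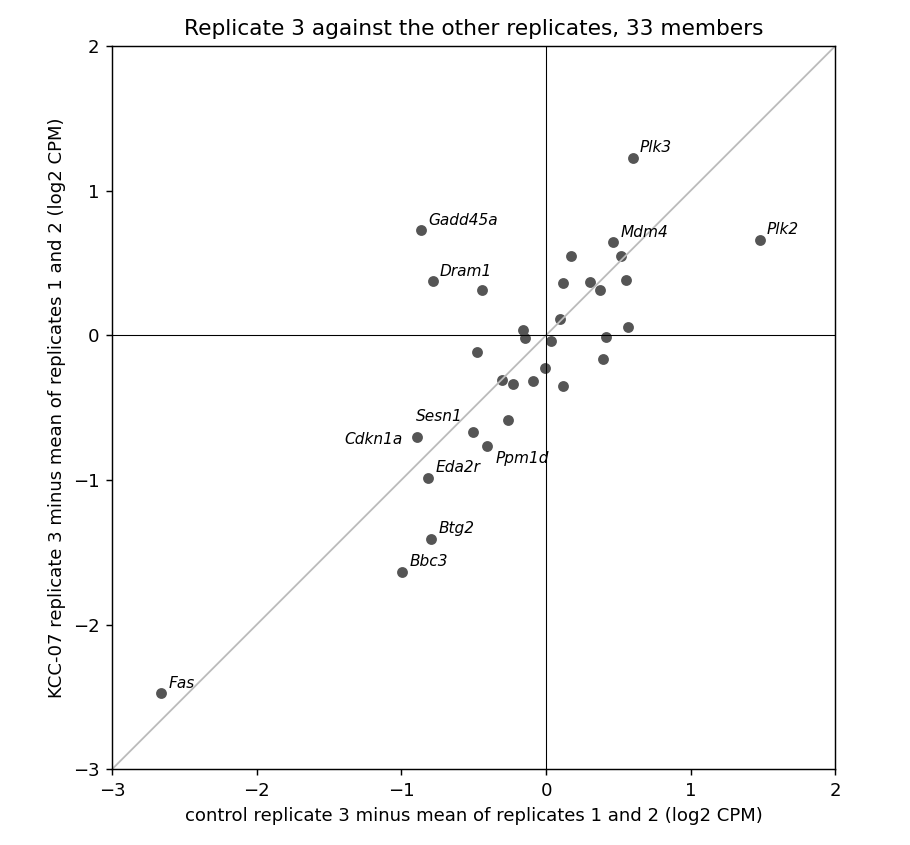
Log2 CPM of replicate 3 minus the mean of replicates 1 and 2 for the 33 tested members, KCC-07 on the vertical and control on the horizontal axis, each point 1 gene and the grey line equality. Fas lies far below 0 in both, at -2.48 with KCC-07 and -2.66 in control, while Gadd45a is higher in KCC-07 replicate 3 and lower in control replicate 3.

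With siMBD2, 0 of 33 members passed in either direction, against 0% of all tested genes higher and 0.0402% lower (edgeR, adjusted p under 0.05). At an unadjusted p under 0.05 there were 2 members higher, Ei24 and Xpc, and 1 lower, Pidd1, and DESeq2 called 0, against 0.569% of all genes in either direction. The replicate block called 0 members as well, against 0.422% of all genes higher and 0.328% lower. The fit of the 6 siRNA libraries alone also called 0, against 1.14% of all genes in either direction, as did the fit without batch 3, against 1.08%. With the block on the 6 libraries alone, 16 members were called, 11 higher against 8.85% of all genes and 5 lower against 9.58%. These 16 were Trp53, Cdkn1a, Gadd45a, Btg2, Ccng1, Plk2, Zmat3, Bbc3, Tnfrsf10b, Apaf1, Pidd1, Perp, Ei24, Rrm2b, Xpc and Ephx1. The median log2 fold change of the members was 0.11, against 0.00 over all genes, and -0.03 without scramble replicate 3. In 8 members every siMBD2 library lay above every scramble library, against 10.3% of all genes, and in 5 every one lay below, against 11.6%. In 18 members all 3 same-numbered pairs were higher with siMBD2, against 24.8% of all genes, and in 9 all 3 were lower, against 25.1%.

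Mdm2 had 69.1, 67.6 and 63.5 CPM with siMBD2, against 58.5, 62.5 and 60.9 CPM with scramble. The groups were apart by a small margin, at 1.10-fold (0.14 on the log2 scale, SE 0.107, edgeR's adjusted p = 1). Cdkn1a had 43.5, 45.6 and 29.7 CPM with siMBD2, against 40.7, 41.2 and 23.1 CPM with scramble (0.18, SE 0.299, edgeR's adjusted p = 1). Replicate 3 was the low library of both groups, and each pair was slightly higher with siMBD2. Trp53 had 236, 246 and 212 CPM with siMBD2, against 268, 262 and 230 CPM with scramble (-0.13, SE 0.151, edgeR's adjusted p = 1), and Mdm4 had 86.6, 96.8 and 90.4 CPM, against 95.1, 96.8 and 97.9 CPM with scramble. Each Trp53 pair was lower with siMBD2, within a range in which the groups overlapped. Gadd45a was at 37.9, 36.7 and 40.4 CPM with siMBD2, against 30.4, 28.8 and 30.9 CPM with scramble (0.35, SE 0.266, edgeR's adjusted p = 1), with no overlap.

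The compound effect minus the knockdown effect was tested directly, and 0 of 33 members passed, against 0.482% of all genes higher and 0.174% lower (edgeR; 5 members higher and 1 lower at an unadjusted p under 0.05; DESeq2 called Ephx1 higher, against 2.70% of all genes, and Ei24 lower, against 1.43%). With the block 6 members were higher with the compound than with the knockdown, Mdm2, Cdkn1a, Plk3, Eda2r, Trp53inp1 and Ephx1, against 4.65% of all genes, and 1 was lower, Ei24, against 2.24%. Without batch 3, 6 were higher, against 6.79% of all genes, and 1 was lower, again Ei24, against 3.85%. Among those 6 Phlda3 (0.80, edgeR's adjusted p = 0.008) stood in place of Trp53inp1. For Mdm2 the difference was 0.49 (SE 0.151, edgeR's adjusted p = 0.160, and 0.0251 with the block). For Cdkn1a it was 0.69 (SE 0.422, edgeR's adjusted p = 0.487, and 0.0232 with the block). For Ephx1 it was 0.60 (SE 0.143, edgeR's adjusted p = 0.0807, and 0.0163 with the block), since Ephx1 had 85.4, 86.6 and 71.5 CPM with siMBD2, against 97.2, 91.6 and 87.1 CPM with scramble. For Ei24 it was -0.52 (SE 0.104, edgeR's adjusted p = 0.0509, and 0.0173 with the block). Ei24 had 106, 110.4 and 102 CPM with siMBD2, against 91.4, 86.4 and 87.5 CPM with scramble, so that its groups were apart in both arms and in opposite directions.

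Scramble siRNA against control, a comparison that shares the control libraries with KCC-07 against control, called 2 members. Aen (chromosome 7, from 78895854 to 78911209), an exonuclease of apoptotic DNA, rose, which is 1 of 33 against 4.71% of all genes, and Ei24 fell, which is 1 of 33 against 4.08%. Aen had 84.3, 83.9 and 72.6 CPM with scramble, against 49.5, 63.3 and 60.6 CPM in control (log2 fold change 0.47, SE 0.128, edgeR's adjusted p = 0.0425), while KCC-07 cells had 65.5, 66.7 and 51.9 CPM. With a block that takes libraries of 1 number in both arms as matched, which the labels do not state, 2 members rose, Aen and Ephx1, against 7.39% of all genes, and 3 fell, Ei24, Trp53inp1 and Sesn1, against 6.42%. For Aen the scramble libraries were all above control, and the KCC-07 libraries overlapped with control. Ei24 was lower with scramble by a log2 fold change of -0.30 (SE 0.0733, edgeR's adjusted p = 0.0277), a value next to its -0.25 with KCC-07. Mdm2 had -0.14 with scramble and 0.63 with KCC-07, both against control, and Cdkn1a had -0.30 and 0.87. In the fit of all 12 libraries neither gene passed with scramble. Without batch 3 both fell with scramble, Mdm2 by 0.21 and Cdkn1a by 0.31 on the log2 scale (edgeR's adjusted p = 0.0317 and 0.0226). The Aen call ended without any 1 of control replicates 1 and 2 and scramble replicates 1, 2 and 3 (edgeR's adjusted p from 0.0602 to 0.144), and the Ei24 call without control replicate 2 or any scramble library (0.0645 to 0.115). Without batch 3 the comparison called 20 members, 9 higher against 21.5% of all genes and 11 lower against 19.8%. The 9 were Gtse1, Plk3, Zmat3, Apaf1, Pidd1, Aen, Phlda3, Tigar and Ephx1, and the 11 were Mdm2, Cdkn1a, Gadd45a, Btg2, Fas, Ei24, Eda2r, Dram1, Trp53inp1, Rrm2b and Sesn1. Fas stood at -1.85 (edgeR's adjusted p = 1.95e-05).

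A separate list, which holds none of the members, covers 25 kinases, ligases, cofactors and relatives of p53. Of these, 24 were tested and 0 passed with KCC-07, against 3.58% of all genes higher and 2.08% lower (edgeR, adjusted p under 0.05). At an unadjusted p under 0.05 by edgeR, 1 was higher and 3 were lower. The median log2 fold change was 0.01. Trp63, the p53 relative of basal epithelium, had 43.7, 33.5 and 17.7 CPM with KCC-07, against 56.6, 55.4 and 55.6 CPM in control (-0.82, SE 0.235, edgeR's adjusted p = 0.0626), and fell with the block (0.0187 by edgeR). All KCC-07 libraries lay below control, replicate 3 furthest. Ppp1r13b, the p53 cofactor ASPP1, had 0.43 (edgeR's adjusted p = 0.0654) and rose with the block (edgeR's adjusted p = 0.0109). The ubiquitin ligase gene Cop1 had -0.21 (edgeR's adjusted p = 0.124). Scramble siRNA against control called Ppp1r13b higher and Trp63 lower as well (edgeR, adjusted p under 0.05), the same directions as with KCC-07.

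Of 53 further p53 targets 49 were tested, and 5 rose and 1 fell with KCC-07, against 3.58% and 2.08% of all genes, with a median of 0.10. With the block 12 rose and 3 fell, against 12.8% and 9.00%. Ddit4, an mTOR inhibitor that ATF4 and hypoxia also induce, had 481, 482 and 452 CPM with KCC-07, against 219, 261 and 256 CPM in control (0.94, SE 0.131, edgeR's adjusted p = 0.00393). It stood higher still in the transfected cells, at 583, 619 and 489 CPM with siMBD2, against 573, 633 and 453 CPM with scramble. Rap2b, a small GTPase, and Lif, a cytokine of the IL-6 family, rose by 0.80 and 0.81 (edgeR's adjusted p = 0.00511 and 0.0144). Scramble siRNA against control also called Lif and Ddit4 higher, but not Rap2b (edgeR, adjusted p under 0.05). Rap2b overlaps B430305J03Rik and Gm37696 on the opposite strand, so its value is uncertain.

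Cell cycle genes that p53 lowers through p21 and the DREAM repressor complex were mixed. Of 35 such genes, all tested, 2 rose and 1 fell with KCC-07, against 3.58% and 2.08% of all genes. Below 0 lay 27 of them, against 48.2% of all genes, with a median of -0.13. With the block 2 rose and 7 fell, against 12.8% and 9.00%. E2f1, a transcription factor of S-phase entry, had 144, 142 and 153 CPM with KCC-07, against 89.1, 120.4 and 97.9 CPM in control (0.52, edgeR's adjusted p = 0.0215). Nek2, a centrosome kinase gene, rose by 0.46 (edgeR's adjusted p = 0.0254). Ccna2, the cyclin A2 gene, had 265, 256 and 190.3 CPM with KCC-07, against 355, 327 and 315 CPM in control (-0.49, edgeR's adjusted p = 0.0339). Nek2 and Ccna2 overlap Gm38037 and Exosc9 on the opposite strand and are uncertain.

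Some members share ground with other genes, and since the sources used here do not give the strand setting of the counting, their reads could be split or merged. Gadd45a overlaps E230016M11Rik on the opposite strand, which had at most 0.765 CPM in any library, Plk3 overlaps Tctex1d4, with at most 0.266 CPM, and Ei24 overlaps Gm26787, at 0 in all 12. Cdkn1a overlaps AC167363.2, whose level was not analysed here. Ddb2 overlaps Acp2, at 29.5 ± 0.508 CPM with KCC-07 and 33.003 ± 1.91 CPM in control, so the value of Ddb2 is uncertain. Rrm2b overlaps Gm49085, with at most 0.634 CPM in any library, and Tigar overlaps Platr31, with at most 0.0666 CPM. On the same strand, Bax and Ephx1 overlap gene models at 0 counts. No member had a near-identical copy.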

How the data were processed

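Polyadenylated RNA of 12 libraries was sequenced, and the authors deposited 1 table of raw gene counts, which per its header pairs gene identifiers with symbols. DRAGEN, DESeq2 1.44.0 and the mm10 and GRCm38.p6 builds appear in the submitters' processing notes with no role stated. The annotation, strand setting and treatment of multiply mapped reads are not given in the sources used here. Counts were analysed in R 4.3.3 with edgeR 4.0.16 (limma 3.58.1 underneath). Genes passed filterByExpr (minimum count 10, minimum total 15), libraries were scaled by TMM, and a quasi-likelihood model with 1 mean per group over all 12 libraries (8 residual degrees of freedom) gave each comparison, with Benjamini-Hochberg adjustment over the 14935 tested genes and a threshold of 0.05. Standard errors are the absolute log2 fold change over the square root of F, and log2 CPM used a prior count of 2. The 4 comparisons were KCC-07 against control, siMBD2 against scramble, the difference of these effects, and scramble against control.

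The batch tag in the labels gives libraries of 1 number in an arm a shared batch, and the block rests on that tag. Deviations from the group mean of same-numbered libraries correlated across genes with r of 0.27, 0.28 and 0.48 for KCC-07 and control and 0.09, 0.15 and 0.42 for siMBD2 and scramble. Between replicates 1 and 2 the crossed pairs gave 0.17 and 0.30 for KCC-07 and control and 0.18 and 0.21 for siMBD2 and scramble, so that in these values replicate 3 alone stood apart by number. The block fit carries the number within each arm (4 residual degrees of freedom). A block shared by all groups (6), used for scramble against control, takes equal numbers in both arms as 1 batch. The labels do not say that the arms were grown together, and same-numbered libraries correlated there with r of 0.07, 0.02 and 0.13. DESeq2 1.42.0, other size factors, other filters, a threshold of 0.01, each library left out and batch 3 left out were alternatives. The fits were also run on simulated counts that held no replicate or batch effect, so that run says nothing about the spread of replicate 3 here.

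The members and the other gene lists were chosen with earlier results of these data known. Genes named with values in every library were Trp53, Mdm2, Mdm4, Cdkn1a, members with an adjusted p under 0.05 in any comparison, 4 further members by the block adjusted p, and 3 genes of each other list by the KCC-07 adjusted p. Any other gene singled out was chosen after its values were seen. Gene positions come from the GRCm38.p6 annotation, where Ei24 matched by its identifier without version. A near-identical copy meant 95% identity over 50% of a transcript. The motif search in promoter windows was chosen after seeing the data. P-values measure the spread between libraries that the labels call biological replicates. The fits of all 12 libraries pool that spread over the 4 groups, so the p-values of 1 arm rest in part on the other. The spread was unequal. Chi-squared per degree of freedom between replicate 3 and replicates 1 and 2 ran from 82.9 to 124 in the drug arm. In the siRNA arm it ran from 21.1 to 32.6.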

Additional observations from a re-analysis of the deposited data

How the results depend on the processing

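The direction of the KCC-07 result for Mdm2 and its call held under every alternative of the 12-library fit, and the number of calls was what moved. For KCC-07 against control, the 844 genes and 5 members called by edgeR became 3251 and 17 with the replicate block, 1 and 0 from the 6 libraries of the comparison alone, 394 and 3 with those 6 and the block, and 1874 and 10 with DESeq2. They became 3833 and 15 without batch 3, 3577 and 17 with the block and without batch 3, 145 and 1 at an adjusted p under 0.01, and 391 to 2134 and 2 to 7 when 1 library was left out. For siMBD2 against scramble, 6 genes became 112 with the block, 171 from 6 libraries alone, 2753 with both, 85 with DESeq2, 162 without batch 3, 73 with the block and without batch 3, 3 at 0.01 and 2 to 3 with 1 library left out, and 0 members became 16 with the block on 6 libraries alone. For the difference of the effects, 98 genes and 0 members became 1030 and 7 with the block, 617 and 2 with DESeq2, 1589 and 7 without batch 3, 1325 and 7 with the block and without batch 3, and 11 to 351 and 0 to 2 with 1 library left out. There the genes became 176 with no low-count filter and 10 at 0.01, and the members 1 with a filter of at least 1 CPM in 3 libraries. For scramble against control, 1313 genes and 2 members became 2062 and 5 with the block, 332 and 0 with the block on 6 libraries alone, 2299 and 6 with DESeq2, 6172 and 20 without batch 3, 5888 and 20 with the block and without batch 3, 267 and 0 at 0.01, and 316 to 3125 and 0 to 8 with 1 library left out, while the members became 0 from 6 libraries alone. 1 called value changed sign: Plk2, scramble against control, was -0.21 in the 12-library fit and 0.48 with the block and without batch 3 (edgeR adjusted p = 0.0399), and the cause was not tested. Over all 12 libraries, the replicate block changed no call of a member beside those named in the report. Without batch 3, adding the block gained Trp53, Gadd45a and Sesn1 and lost Gtse1 with KCC-07, and gained Plk2 and lost Eda2r with scramble. With 3 libraries per group no exact permutation test can go below p = 0.1. The fit with the block and without batch 3 was chosen after seeing the data.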
